A study of Mus musculus with 12 samples.

Results

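The accessible regions around 40 imprinted mouse genes were examined by ATAC-seq, a method in which the Tn5 transposase cuts open chromatin and the cut ends are sequenced. A region, or peak, was assigned to an imprinted gene when it overlapped the gene body in the GENCODE M21 annotation (build GRCm38) extended by 5 kb on both sides. By this rule 192 of the 91354 peaks counted for the BGI data and 194 of the 87027 peaks counted for the Illumina data belonged to imprinted genes, and every one of the 40 genes had at least 1 peak in both sets. In the BGI set the number of peaks per gene ran from 1, at 5 genes, to 24 at Usp29, and 19 peaks lay in the windows of 2 genes. The 40 genes fall into 17 imprinted clusters or single loci.

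The series compared 4 groups of 3 samples. Omni-ATAC-seq libraries were made from mouse embryonic fibroblasts (MEFs), sorted as THY1+ cells, and from THY1-/SSEA1+/EPCAM+ sorted embryonic stem cells (mESCs), all untreated and of C57/Bl6 background. Each of the 6 libraries, MEF 1, 2 and 4 and mESC 1, 3 and 5, was read on both the DNBSEQ-G400 instrument of BGI and the HiSeqX10 instrument of Illumina, which gave 12 samples, so that both platforms carry the same biological replicates and are not independent evidence on the cell types. The sources used here give neither the embryonic age of the MEFs nor the number of lines behind the mESCs. Wherever values are listed below, those of MEFs are libraries 1, 2 and 4 in that order and those of mESCs are libraries 1, 3 and 5.

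Genomic imprinting is the expression of a gene from only the copy inherited from the mother or only the copy inherited from the father. Most imprinted genes sit in clusters under the control of an imprinting control region, a stretch of DNA that is methylated on 1 parental chromosome from the egg or the sperm onwards (a germline differentially methylated region, DMR) and is protected through early development by the zinc finger proteins ZFP57 and ZFP445. Many clusters hold growth regulators and a long non-coding RNA that silences its neighbours on the same chromosome, and imprints are known to be lost or gained in cultured stem cells. In these bulk samples the reads of both parental copies are summed over all cells, so that opening on a single allele, in fewer cells or to a lesser degree cannot be told apart.

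Reads in peaks ranged from 15860985 to 21662775 per sample in the BGI set and from 15996202 to 21441767 in the Illumina set, and levels are given as counts per 1000000 of these reads (CPM). All BGI peaks were 502 bp wide, so their levels are per equal length. At the lead promoter peak, defined as the peak within 1 kb of an annotated start site of the gene with the highest mean level, 8 of 8 fibroblast markers were lower in mESCs and 8 of 8 pluripotency markers higher. Among 9 markers of other cell types, 4 had no promoter peak, the endodermal genes Gata4 and Sox17 were higher in mESCs, Gata6 and the macrophage gene Csf1r were lower, and Kdr did not pass the test, and the part of such cells in the results was not tested. The library mESC 5 stood apart from mESC 1 and 3 at many DMRs, and the fold changes without it are given there.

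Sequences are shown for 4 germline DMRs and for the most changed intron peaks of 2 clusters, because the results turn on these sites. All are read from GRCm38 on the plus strand, with the motifs searched for in capitals on either strand. In the DMR sequences the capitals mark TGCCGC, the hexamer that ZFP57 binds when it is methylated, which reads as its reverse complement where it lies on the minus strand. The Peg3 and Usp29 sequence also has GCCATNTT, the core of the YY1 motif, in capitals, and the H19 sequence GGNGGCAG, part of the motif of the insulator protein CTCF. The Snrpn sequence (chr7:60004338-60004528) lies in an intron of Snrpn close to the Snurf start, the Peg3 and Usp29 sequence (chr7:6729441-6729738) in an intron of Peg3 within 1 kb of the divergent starts of both genes, the Inpp5f sequence (chr7:128687951-128688025) in an intron at an internal promoter, and the H19 sequence (chr7:142580079-142580344) between genes upstream of H19.
Snrpn: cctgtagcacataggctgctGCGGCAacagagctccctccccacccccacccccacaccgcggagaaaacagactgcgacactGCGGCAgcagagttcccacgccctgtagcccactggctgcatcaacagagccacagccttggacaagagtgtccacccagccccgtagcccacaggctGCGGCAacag
Peg3 and Usp29: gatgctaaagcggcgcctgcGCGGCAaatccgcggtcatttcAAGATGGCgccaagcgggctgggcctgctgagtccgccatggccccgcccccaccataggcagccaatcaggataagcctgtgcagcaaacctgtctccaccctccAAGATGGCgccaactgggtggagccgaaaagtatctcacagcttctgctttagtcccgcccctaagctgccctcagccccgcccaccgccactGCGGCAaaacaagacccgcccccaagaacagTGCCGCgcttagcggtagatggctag
Inpp5f internal: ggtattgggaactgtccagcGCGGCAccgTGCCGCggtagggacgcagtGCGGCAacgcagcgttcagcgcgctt
H19 upstream: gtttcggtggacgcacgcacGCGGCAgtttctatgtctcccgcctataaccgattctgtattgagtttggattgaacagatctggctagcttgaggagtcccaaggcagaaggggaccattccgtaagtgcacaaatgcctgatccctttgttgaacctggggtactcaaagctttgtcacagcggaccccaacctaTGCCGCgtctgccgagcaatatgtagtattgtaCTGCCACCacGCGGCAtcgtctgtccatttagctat
Each of the 4 stretches, cut around its matches, holds 3 TGCCGC matches, so this count does not describe DMRs at large. Whole peaks at the listed DMR sites held from 0 matches, as at Kcnq1ot1 and Zrsr1, to 5 at Mest.

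Across the 192 peaks at imprinted genes, 39 (20.3%) held at least 1 TGCCGC, against 14.2% of all 91285 peaks on assembled chromosomes. Among promoter peaks the share was 30.6% at imprinted genes and 26.6% overall. At the 11 lead promoter peaks that carry a germline DMR, 9 (81.8%) held the hexamer, with 2 matches per peak on average and 5 at most, at Mest. GGNGGCAG was found in 18.8% of the imprinted-gene peaks and 22.1% of all peaks, and GCCATNTT in 12.5% and 8.19%. These shares describe letters in a 502 bp window and are not binding sites.

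The intron sequences come from the peaks of the Igf2r and Peg3 clusters with the largest fold changes. In capitals is TGANTCA, the motif of the AP-1 factors, which was searched for after the data had been seen. The Airn sequence (chr17:12782951-12783071) holds 1 match, and the Usp29 sequence (chr7:6760275-6760425) holds none of the motifs and is in lower case throughout.
Airn intron: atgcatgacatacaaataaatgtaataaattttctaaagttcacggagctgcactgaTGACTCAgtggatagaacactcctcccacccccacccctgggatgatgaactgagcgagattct
Usp29 intron: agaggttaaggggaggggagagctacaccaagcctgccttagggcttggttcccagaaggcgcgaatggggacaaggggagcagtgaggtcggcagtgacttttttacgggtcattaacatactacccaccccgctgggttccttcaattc
Of the 75 imprinted-gene peaks at least 2-fold lower in mESCs, 19 (25.3%) held TGANTCA, while among all such peaks of the genome the share was 44.5%. Of the 40 peaks at least 2-fold higher in mESCs, 12 (30%) held it, against 19.3% of all such peaks. The octamer ATGCAAAT, bound by OCT4, was present in 1 of the 40 (2.5%, against 5.31% overall) and in 0 of the 75 (against 2.43%).

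To see how accessibility at imprinted genes differs between the cell types, mESCs were compared with MEFs on each platform with edgeR over all peaks, with calls at an adjusted p below 0.05. On BGI, 158 of the 192 imprinted-gene peaks differed, beside 84.1% of all peaks. Of these, 56 were higher in mESCs (29.2% of the peaks, beside 40.9% of all peaks) and 102 were lower (53.1%, beside 43.2%). On Illumina, 163 of 194 differed (beside 84.5%), with 59 higher (beside 42.1%) and 104 lower (beside 42.4%). The share of differing peaks was thus near that of the genome, while the lower calls outnumbered the higher ones. The median log2 fold change over the imprinted-gene peaks was -0.50 on BGI, beside -0.08 over all peaks, and -0.43 on Illumina, beside -0.03. The levels of the 3 MEF and the 3 mESC samples did not overlap at 161 of the 192 BGI peaks, beside 85.1% of all peaks, and at 166 of the 194 Illumina peaks, beside 85.6%. With the depths after down-sampling as library sizes, which moved the median of all BGI peaks from -0.08 to 0.06, 61 imprinted-gene peaks were higher and 90 lower. In that setting 151 of the 192 were called, beside 82.3% of all peaks, and their median log2 fold change was -0.36. The split of all peaks by direction in that setting is not given here.

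By position, 85 of the 192 peaks (44.3%, beside 32.6% of all peaks) lay within 1 kb of an annotated start site of any gene and 78 (40.6%, beside 30.7%) were intronic. Another 15 (7.81%, beside 7.27%) were exonic and 14 (7.29%, beside 29.4%) intergenic. The assignment by gene body extended by 5 kb leaves little room for intergenic peaks, so this balance follows in part from the rule. Of the 102 lower calls 49 were intronic, and 21 intronic peaks were higher, while over all intronic peaks 48.3% were lower and 42.9% higher. Their median log2 fold change was -1.27 beside -0.27 over all intronic peaks. The promoter peaks stood at 27 higher (beside 31.3% of all promoter peaks) and 38 lower (beside 41%) of 85, with a median of -0.25 beside -0.13 over all promoter peaks. The peak lists that the authors made for each cell type on BGI held 66 of the 192 peaks in both cell types, 78 for MEFs only and 48 for mESCs only. Over all 91354 peaks the lists held 28134 in both, 29924 for MEFs only and 33296 for mESCs only. A summit was called in all 3 MEF and all 3 mESC samples at 126 peaks (65.6%, beside 55.5% of all peaks), in the 3 MEF samples and no mESC sample at 37 (19.3%, beside 16.4%), and in the 3 mESC samples and no MEF sample at 7 (3.65%, beside 17.7%).

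**Figure D1:**
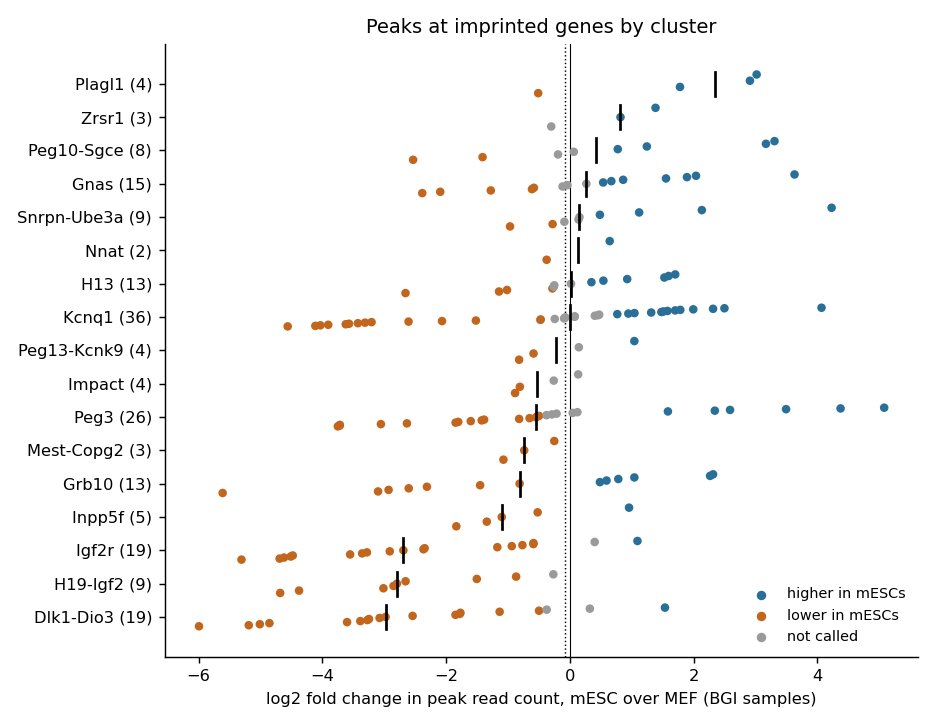
Log2 fold change in read count (mESC over MEF, BGI samples, x axis) of every imprinted-gene peak, 1 point per peak, by cluster (y axis, number of peaks in parentheses). Black bars are cluster medians and the dotted line is the median of all 91354 peaks (-0.08); the Dlk1-Dio3, H19-Igf2 and Igf2r clusters sit far to the left, with medians of -2.98, -2.80 and -2.69.

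The direction differed between clusters. In 3 of them, Dlk1-Dio3 (16 of 19 peaks lower in mESCs), H19-Igf2 (8 of 9) and Igf2r (17 of 19), the cluster medians were the lowest. The summed level of the Igf2r cluster was 227 ± 6.57 CPM in MEFs and 60.5 ± 1.06 CPM in mESCs (SD, n = 3 each), and that of the H19-Igf2 cluster 122 ± 4.36 and 31.5 ± 1.29 CPM. The Kcnq1 cluster, with the most peaks, had 13 higher and 13 lower of 36, and its sums overlapped between the cell types (355 ± 17.0 CPM in MEFs and 376 ± 4.34 CPM in mESCs). Sums in mESCs lay above every MEF sum in the Peg10-Sgce, Plagl1, Zrsr1, Gnas and Nnat loci on BGI, while for Gnas and Nnat the Illumina sums overlapped.

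The promoters of the 40 genes were examined next. A lead promoter peak was found at 34 genes in 32 distinct peaks, since Peg3 shares one with Usp29 and Peg10 with Sgce, and Kcnq1, Rtl1, Rian, Mirg, Ndn and Kcnk9 had no peak within 1 kb of their annotated starts. On BGI, 10 of these genes had a higher lead promoter peak in mESCs and 16 a lower one. Over all promoter peaks 72.3% differed, 31.3% being higher and 41% lower. On Illumina the matching peaks gave 11 higher and 17 lower, beside 31.6% and 42.4% of all promoter peaks. The 6 distinct peaks that did not pass on BGI were those of Kcnq1ot1, Cdkn1c, Peg3 and Usp29, Peg10 and Sgce, Igf2r and H13.

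**Figure D2:**
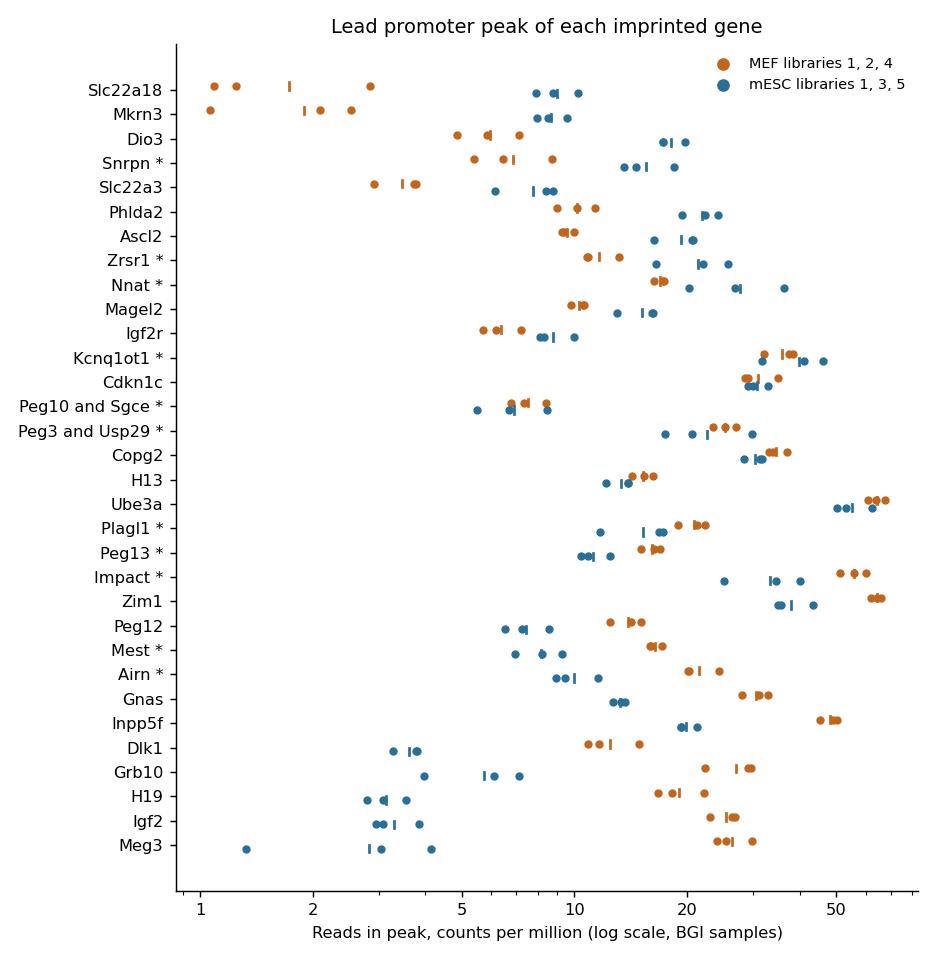
Level of the lead promoter peak (CPM, log scale, x axis) in each BGI sample for the 34 imprinted genes with such a peak (y axis, ordered by log2 fold change; asterisks mark promoters with a germline DMR). Points are libraries and short bars are group means; Meg3, Igf2, H19 and Grb10 at the foot have every mESC library below every MEF library, and Slc22a18, Mkrn3 and Dio3 at the top the reverse.

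At the promoters with a germline DMR, which are unmethylated and active on the paternal chromosome, the log2 fold changes lay between -1.17 and 1.12. Their 11 distinct peaks included 3 higher, 5 lower and 3 that did not pass, with a median log2 fold change over the 13 genes of -0.21. This is near the share over all promoter peaks, of which 72.3% differed, 31.3% being higher and 41% lower, with a median of -0.13. At Kcnq1ot1, the antisense RNA that silences the Kcnq1 cluster, the peak held 38.4, 37.4 and 32.1 CPM in MEFs and 41.2, 46.3 and 31.7 CPM in mESCs. These values overlapped between the cell types (log2 fold change 0.08, SE 0.13, adjusted p = 0.574). At the promoter shared by Peg3, a zinc finger gene, and Usp29, a ubiquitin protease gene, the peak held 23.5, 25.3 and 26.98 CPM in MEFs and 20.7, 29.9 and 17.5 CPM in mESCs, again with overlap (log2 fold change -0.21, SE 0.15, adjusted p = 0.203). This value rested on single libraries, being -0.44 and past the threshold without mESC 3 and -0.05 without mESC 5. Peg10 and Sgce, a retrotransposon-derived gene and the gene of epsilon-sarcoglycan, share a promoter that held 8.402, 7.36 and 6.77 CPM in MEFs and 5.49, 8.46 and 6.71 CPM in mESCs and did not differ by the test (log2 fold change -0.19, SE 0.20, adjusted p = 0.381).

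Snrpn, which encodes a spliceosome protein and starts the long paternal transcript of the Prader-Willi region, had a more open DMR promoter in mESCs. The peak (chr7:60004027-60004528, in which the printed Snrpn sequence lies) held 5.401, 6.46 and 8.71 CPM in MEFs and 14.6, 18.4 and 13.5 CPM in mESCs, with no overlap (log2 fold change 1.12, SE 0.19, adjusted p = 2.2e-05). The peak of Zrsr1, a splicing factor gene nested in an intron of Commd1, held 25.7, 22.1 and 16.5 CPM in mESCs against 10.9, 10.8 and 13.2 CPM in MEFs (log2 fold change 0.82, SE 0.16, adjusted p = 1.1e-04). Both genes had higher levels in every mESC library than in any MEF library. Nnat, the gene of the membrane proteolipid neuronatin, showed the widest spread of the 3, with 36.3, 26.8 and 20.3 CPM in mESCs against 17.2, 17.4 and 16.3 CPM in MEFs (log2 fold change 0.64, SE 0.16, adjusted p = 0.00128), and its log2 fold change was 0.41 without mESC 1.

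Mest, a gene of the alpha/beta hydrolase family, was in the opposite direction. Its DMR promoter held 17.2, 15.9 and 16.1 CPM in MEFs and 6.94, 9.28 and 8.200 CPM in mESCs (log2 fold change -1.07, SE 0.15, adjusted p = 3.3e-06). The promoter of Airn, the antisense RNA that silences Igf2r on the paternal chromosome, held 20.2, 20.2 and 24.3 CPM in MEFs and 8.95, 11.6 and 9.44 CPM in mESCs (log2 fold change -1.17, SE 0.14, adjusted p = 4.7e-07). Every mESC library was below every MEF library at both. Plagl1, a zinc finger gene, held 21.3, 18.9 and 22.4 CPM in MEFs and 17.3, 16.9 and 11.7 CPM in mESCs (log2 fold change -0.51, SE 0.15, adjusted p = 0.00369), and Peg13, a non-coding RNA within Trappc9, 16.3, 16.9 and 15.1 CPM in MEFs and 10.9, 10.4 and 12.4 CPM in mESCs (log2 fold change -0.59, SE 0.14, adjusted p = 6.7e-04). Impact, a regulator of translation, had a promoter peak of 51.3, 55.9 and 60.1 CPM in MEFs and 34.7, 40.03 and 25.1 CPM in mESCs (log2 fold change -0.81, SE 0.13, adjusted p = 1.9e-05), and here mESC 5 lay well below the other mESC libraries.

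The H19-Igf2 cluster codes for the fetal growth factor IGF2, expressed from the paternal chromosome, and the maternal non-coding RNA H19, which share enhancers. Both lead promoters were less open in mESCs than in MEFs. The Igf2 peak (chr7:142656029-142656530) held 26.8, 26.4 and 23.1 CPM in MEFs and 3.09, 2.96 and 3.85 CPM in mESCs (log2 fold change -3.01, SE 0.16, adjusted p = 1.3e-11), and the H19 peak (chr7:142578010-142578511) held 18.2, 16.7 and 22.2 CPM in MEFs and 3.09, 3.55 and 2.795 CPM in mESCs (log2 fold change -2.66, SE 0.18, adjusted p = 2.3e-10). The lowest MEF library was several times the highest mESC library at both. The DMR upstream of H19 (chr7:142580065-142580566), a set of CTCF sites that keeps the enhancers from Igf2 on the maternal chromosome, held 5.95, 5.77 and 9.56 CPM in MEFs and 3.66, 2.31 and 1.86 CPM in mESCs (log2 fold change -1.50, SE 0.28, adjusted p = 8.1e-05). The largest change was in an intergenic peak downstream of Igf2 (chr7:142650102-142650603), where 10.4, 8.996 and 8.16 CPM in MEFs and 0.378, 0.414 and 0.311 CPM in mESCs were measured (log2 fold change -4.68, SE 0.30, adjusted p = 1.5e-10). A peak downstream of H19 (chr7:142574716-142575217) followed with a log2 fold change of -4.38 ± 0.27 (SE). Of the 9 peaks the only one that did not pass was the upstream Igf2 promoter at chr7:142660539-142661040, a GC-rich peak with 10.5 ± 0.758 CPM in MEFs and 9.11 ± 1.17 CPM in mESCs (SD, n = 3; log2 fold change -0.27, SE 0.16, adjusted p = 0.132). On Illumina 11 of 12 peaks were lower.

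In the Dlk1-Dio3 cluster, the paternal chromosome expresses Dlk1, a Notch-like ligand that restrains adipogenesis, Rtl1, a retrotransposon-derived gene needed by the placenta, and Dio3, which inactivates thyroid hormone, while the maternal chromosome expresses the non-coding RNAs Meg3, Rian and Mirg with their microRNAs. Most peaks at the maternal genes were less accessible in mESCs. At the Meg3 lead promoter peak (chr12:109542727-109543228) there were 24.1, 25.5 and 29.8 CPM in MEFs and 1.32, 4.14 and 3.04 CPM in mESCs (log2 fold change -3.27, SE 0.23, adjusted p = 6.2e-10), and at the peak over the annotated Meg3 gene start (chr12:109540613-109541114) 15.3, 15.6 and 17.2 CPM in MEFs and 0.378, 0.769 and 0.559 CPM in mESCs (log2 fold change -4.86, SE 0.24, adjusted p = 7.4e-12). The library mESC 1 was the lowest at both. All 4 Meg3 peaks, all 3 Mirg peaks and 4 of 5 Rian peaks were lower in mESCs. The other Rian peak (chr12:109612756-109613257, named after its values were seen), near the start of the microRNA Mir1188, held 12.5, 11.9 and 13.3 CPM in mESCs against 8.26, 10.4 and 10.1 CPM in MEFs, above every MEF library, and did not pass on BGI (log2 fold change 0.32, SE 0.15, adjusted p = 0.0551) but was higher on Illumina (log2 fold change 0.49, adjusted p = 0.00507). An exonic Rian peak (chr12:109626864-109627365) held 9.56, 10.5 and 6.27 CPM in MEFs and 0.126, 0.355 and 0.248 CPM in mESCs (log2 fold change -5.19, SE 0.37, adjusted p = 7.0e-10). The highest level in the cluster was at an intergenic peak just past Mirg (chr12:109749691-109750192, named after its values were seen), with 50.6, 50.4 and 38.6 CPM in MEFs and 16.3, 12.5 and 14.04 CPM in mESCs, which was lower in mESCs but still the most open site of the cluster there apart from the Dio3 promoter (log2 fold change -1.78, SE 0.13, adjusted p = 8.4e-10).

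Among the paternal genes of this cluster, the Dlk1 promoter held 11.6, 10.9 and 14.9 CPM in MEFs and 3.28, 3.78 and 3.79 CPM in mESCs (log2 fold change -1.85, SE 0.19, adjusted p = 5.8e-08). Rtl1 had no peak at its own start, and its 3 peaks were all lower in mESCs. The most changed of them (chr12:109596116-109596617, named after its values were seen and without a matching Illumina peak) held 7.201, 6.51 and 10.1 CPM in MEFs and 0.252, 0.000 and 0.124 CPM in mESCs (log2 fold change -5.996, SE 0.46, adjusted p = 1.4e-09), close to no reads in mESCs. Dio3 went the other way. Its promoter (chr12:110278865-110279366) held 17.3, 17.3 and 19.8 CPM in mESCs against 5.86, 4.87 and 7.12 CPM in MEFs (log2 fold change 1.54, SE 0.16, adjusted p = 7.4e-08), and it was the only 1 of the 19 BGI peaks called higher in mESCs. On Illumina 12 of 17 peaks of the cluster were lower and 4 higher, with a median log2 fold change of -1.90.

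The Igf2r cluster on chromosome 17 holds Igf2r, the maternally expressed receptor that clears IGF2, the paternal antisense RNA Airn that runs across its promoter, and the organic cation transporter gene Slc22a3. The receptor promoter itself (chr17:12769194-12769695) held 6.19, 5.72 and 7.22 CPM in MEFs and 8.32, 9.99 and 8.08 CPM in mESCs, close to the threshold on BGI (log2 fold change 0.40, SE 0.18, adjusted p = 0.0503) and past it on Illumina (log2 fold change 0.48, adjusted p = 0.00945). Every mESC library was above every MEF library there, and the peak passed on BGI without MEF 4 (log2 fold change 0.48). In contrast, 13 of the 14 Airn peaks were lower in mESCs and the other one was this shared promoter. The intron peak whose sequence is given above (chr17:12782865-12783366) held 32.6, 27.8 and 28.5 CPM in MEFs and 0.6305, 0.828 and 0.8697 CPM in mESCs (log2 fold change -5.31, SE 0.19, adjusted p = 2.3e-13). The mESC values were close to no reads while those of MEFs were the highest of the cluster. Another Airn peak (chr17:12791381-12791882) held 18.9, 19.4 and 16.6 CPM in MEFs and 0.757, 0.591 and 0.8697 CPM in mESCs (log2 fold change -4.69, SE 0.22, adjusted p = 3.3e-12), and an exonic Igf2r peak (chr17:12692080-12692581) 10.9, 9.195 and 9.21 CPM in MEFs and 0.441, 0.237 and 0.559 CPM in mESCs (log2 fold change -4.62, SE 0.30, adjusted p = 1.9e-10). The Slc22a3 promoter was the only 1 of the 19 BGI peaks called higher in mESCs, with 8.76, 6.15 and 8.39 CPM in mESCs against 2.91, 3.73 and 3.78 CPM in MEFs (log2 fold change 1.09, SE 0.22, adjusted p = 1.8e-04). On Illumina 2 of 20 peaks were called higher.

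**Figure D3:**
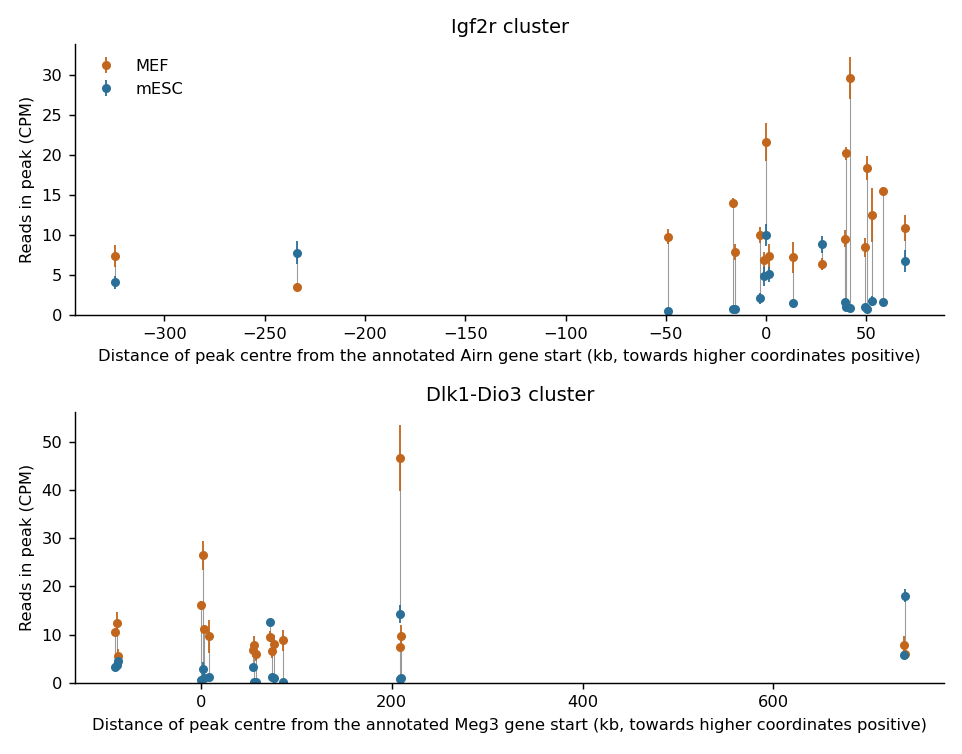
Mean level (CPM, SD as error bars, n = 3 BGI samples per cell type) of each peak of the Igf2r cluster (upper) and the Dlk1-Dio3 cluster (lower) against its distance from the annotated Airn or Meg3 gene start in kb. Grey lines join the 2 cell types at a peak; within Airn the MEF levels reach 29.6 CPM where mESCs have 0.776 CPM, and in the lower panel the Dio3 promoter at the right is the peak where mESCs are clearly above MEFs.

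The Kcnq1 cluster split by gene. Kcnq1, a potassium channel gene, had 13 of its 20 peaks lower in mESCs and 3 higher. The lower peaks were all intronic, the most changed being chr7:143310848-143311349 with 8.36, 7.26 and 12.6 CPM in MEFs and 0.315, 0.355 and 0.559 CPM in mESCs (log2 fold change -4.56, SE 0.33, adjusted p = 7.6e-10). Other intron peaks at chr7:143399687-143400188 and chr7:143349802-143350303 had log2 fold changes of -4.11 ± 0.29 and -4.03 ± 0.41 (SE). Within the same gene a peak at the start of the predicted RNA Gm38321 (chr7:143124217-143124718, named after its values were seen) held 50.8, 51.7 and 43.5 CPM in mESCs against 12.05, 16.3 and 14.6 CPM in MEFs (log2 fold change 1.70, SE 0.12, adjusted p = 4.9e-10), the highest mESC level of the cluster. A peak in the Kcnq1ot1 transcript (chr7:143289111-143289612), also inside Kcnq1, held 8.701, 11.4 and 9.26 CPM in mESCs against 1.62, 1.04 and 2.29 CPM in MEFs (log2 fold change 2.50, SE 0.26, adjusted p = 8.2e-08).

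Several maternally expressed genes on both sides of Kcnq1 had more open peaks in mESCs. Slc22a18, a transporter gene, had 5 of 7 peaks higher and 2 that did not pass, and Phlda2, which limits placental growth, 4 of 5 higher and 1 that did not pass. Their promoters held 8.76, 7.92 and 10.2 CPM in mESCs against 1.25, 1.09 and 2.84 CPM in MEFs at Slc22a18 (log2 fold change 2.31, SE 0.29, adjusted p = 9.1e-07), and 24.2, 19.5 and 22.3 CPM in mESCs against 9.002, 10.2 and 11.4 CPM in MEFs at Phlda2 (log2 fold change 1.04, SE 0.13, adjusted p = 1.1e-06). A peak in the windows of both genes (chr7:143498499-143499000) rose the most, from 0.646, 0.696 and 0.747 CPM in MEFs to 12.4, 10.6 and 14.1 CPM in mESCs (log2 fold change 4.07, SE 0.24, adjusted p = 6.5e-11). Ascl2, a transcription factor gene of the trophoblast that lies on the opposite side of Kcnq1, had 16.3, 20.6 and 20.8 CPM in mESCs against 9.97, 9.24 and 9.41 CPM in MEFs at its lead promoter peak (log2 fold change 0.95, SE 0.14, adjusted p = 6.6e-06). Cdkn1c, the cell cycle inhibitor p57, was an exception, since its promoter held 28.6, 29.1 and 35.05 CPM in MEFs and 30.01, 32.9 and 29.2 CPM in mESCs (log2 fold change -0.07, SE 0.10, adjusted p = 0.517) and 3 of its 4 peaks did not pass.

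At the Peg3 cluster the shared promoter did not pass the test with all libraries, while peaks in the surrounding introns were called in both directions. Of 24 Usp29 peaks 6 were higher and 13 lower. The intron peak with the printed sequence (chr7:6760100-6760601) held 20.1, 25.2 and 20.7 CPM in mESCs against 0.415, 0.746 and 0.697 CPM in MEFs (log2 fold change 5.08, SE 0.23, adjusted p = 2.1e-12), from near no reads in MEFs. Next came a peak at an internal Usp29 start (chr7:6948063-6948564), with 6.81, 7.69 and 7.02 CPM in mESCs against 0.277, 0.398 and 0.299 CPM in MEFs (log2 fold change 4.38, SE 0.33, adjusted p = 1.0e-09), and an intron peak (chr7:6793747-6794248) with a log2 fold change of 3.50 ± 0.42 (SE). On the lower side, intron peaks at chr7:6779954-6780455, chr7:6903405-6903906 and chr7:6910525-6911026 had log2 fold changes of -3.75 ± 0.38, -3.72 ± 0.41 and -3.72 ± 0.22 (SE). The last of these held 13.6, 14.7 and 16.8 CPM in MEFs and 1.51, 0.946 and 1.12 CPM in mESCs. An intron peak of Peg3 (chr7:6727207-6727708, named after its values were seen) held 40.5, 54.2 and 40.9 CPM in mESCs against 13.1, 14.3 and 15.8 CPM in MEFs (log2 fold change 1.59, SE 0.13, adjusted p = 2.5e-09), unlike the promoter peak beside it. The maternally expressed zinc finger gene Zim1 had one of the most open promoters of all imprinted genes in MEFs, with 64.6, 65.9 and 62.1 CPM in MEFs and 35.7, 43.4 and 34.97 CPM in mESCs (log2 fold change -0.82, SE 0.10, adjusted p = 5.1e-07).

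In the Peg10-Sgce cluster 4 of 8 peaks were higher and 2 lower. An intron peak of Sgce (chr6:4684910-4685411) held 21.1, 14.3 and 20.7 CPM in mESCs against 1.71, 1.69 and 1.99 CPM in MEFs (log2 fold change 3.31, SE 0.20, adjusted p = 8.4e-11), and an exonic one (chr6:4738680-4739181) 9.96, 11.2 and 10.6 CPM in mESCs against 1.25, 1.34 and 0.747 CPM in MEFs (log2 fold change 3.17, SE 0.25, adjusted p = 2.2e-09). A peak at an internal Sgce start (chr6:4740440-4740941) held 6.97, 9.99 and 8.66 CPM in MEFs and 1.77, 1.24 and 1.62 CPM in mESCs (log2 fold change -2.53, SE 0.25, adjusted p = 3.3e-08). In the Mest-Copg2 cluster all 3 peaks were lower in mESCs. Copg2, which encodes a coatomer subunit of vesicle transport, had a small difference, with 33.9, 33.1 and 36.99 CPM in MEFs and 31.3, 31.8 and 28.3 CPM in mESCs (log2 fold change -0.25, SE 0.10, adjusted p = 0.0227), and its call was lost with the down-sampled depths as library sizes and without MEF 1, MEF 4 or mESC 5.

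In the Snrpn-Ube3a region 4 of 9 peaks were higher in mESCs and 2 lower. An intron peak of Snrpn (chr7:60002943-60003444) held 10.3, 13.2 and 12.2 CPM in mESCs against 0.508, 0.746 and 0.548 CPM in MEFs (log2 fold change 4.23, SE 0.26, adjusted p = 8.9e-11). Mkrn3, a ubiquitin ligase gene linked to the timing of puberty, had 7.94, 9.58 and 8.51 CPM in mESCs against 1.06, 2.53 and 2.09 CPM in MEFs at its promoter (log2 fold change 2.13, SE 0.27, adjusted p = 9.3e-07). Magel2, a regulator of endosomal sorting, had 16.3, 16.1 and 13.05 CPM in mESCs against 10.6, 9.79 and 10.6 CPM in MEFs (log2 fold change 0.49, SE 0.15, adjusted p = 0.00507). These 3 paternal genes were higher in every mESC library. Peg12 was lower, with 15.1, 14.2 and 12.5 CPM in MEFs and 7.25, 8.57 and 6.52 CPM in mESCs (log2 fold change -0.97, SE 0.16, adjusted p = 3.0e-05). Ndn, the gene of the growth suppressor necdin, had no peak within 1 kb of its start, and its only peak, over the coding exon, held 10.1, 12.2 and 11.6 CPM in MEFs and 9.33, 17.8 and 11.7 CPM in mESCs (log2 fold change 0.14, SE 0.20, adjusted p = 0.513). Ube3a, the maternal ubiquitin ligase of Angelman syndrome, was among the most open promoters of all the genes, with 64.03, 61.04 and 67.5 CPM in MEFs and 53.1, 62.6 and 50.3 CPM in mESCs (log2 fold change -0.28, SE 0.10, adjusted p = 0.0121). Its call was lost with the down-sampled depths and without MEF 1, mESC 1 or mESC 5.

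Gnas, which encodes the stimulatory G protein alpha subunit and several imprinted alternative transcripts, changed by promoter. At the upstream end of the gene, where the maternal Nesp transcript starts, a peak (chr2:174284976-174285477) held 22.6, 24.2 and 25.8 CPM in mESCs against 4.62, 4.57 and 7.72 CPM in MEFs (log2 fold change 2.04, SE 0.17, adjusted p = 5.8e-09), while the one beside it over the annotated start (chr2:174283992-174284493) did not differ by the test (log2 fold change -0.12, SE 0.24, adjusted p = 0.648). The promoter of the antisense transcript Nespas (chr2:174295292-174295793), a germline DMR, held 37.3, 51.6 and 31.2 CPM in mESCs against 25.7, 27.2 and 26.2 CPM in MEFs (log2 fold change 0.54, SE 0.14, adjusted p = 0.00217), and its log2 fold change was 0.34 without mESC 3. The Gnas lead promoter peak (chr2:174329452-174329953) was the reverse, with 31.1, 27.98 and 32.9 CPM in MEFs and 13.4, 12.7 and 13.7 CPM in mESCs (log2 fold change -1.28, SE 0.11, adjusted p = 7.1e-09), while a peak over another internal start (chr2:174327527-174328028) held 12.2 ± 0.852 CPM in MEFs and 12.5 ± 0.837 CPM in mESCs (SD, n = 3) and did not pass either (log2 fold change -0.04, SE 0.14, adjusted p = 0.797). Thus 7 of the 15 Gnas peaks were higher and 5 lower.

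Grb10, an adaptor that restrains insulin and IGF signalling and is imprinted in opposite ways in neurons and other tissues, had 6 peaks higher and 7 lower of 13. Its lead promoter peak by the rule (chr11:11939558-11940059), which lies 942 bp from an annotated start near the end of the gene, held 29.04, 29.6 and 22.3 CPM in MEFs and 7.12, 3.96 and 6.09 CPM in mESCs (log2 fold change -2.31, SE 0.18, adjusted p = 2.1e-09). The intron peak at chr11:11953439-11953940 held 23.4, 25.4 and 32.8 CPM in MEFs and 0.883, 0.118 and 0.745 CPM in mESCs (log2 fold change -5.61, SE 0.28, adjusted p = 9.3e-12), the largest difference with a matching Illumina peak among all imprinted genes. In the other direction, intron peaks at chr11:11942511-11943012 and chr11:11948939-11949440 had log2 fold changes of 2.32 ± 0.18 and 2.27 ± 0.17 (SE). The internal promoter with the germline DMR (chr11:12025689-12026190) held 15.7, 21.4 and 10.2 CPM in mESCs against 6.74, 6.56 and 8.76 CPM in MEFs (log2 fold change 1.04, SE 0.22, adjusted p = 2.8e-04).

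H13, a signal peptide peptidase gene, and Inpp5f, a phosphoinositide phosphatase gene, also carry a germline DMR at an internal promoter. The retrogene Mcts2 inside H13 (chr2:152686630-152687131) held 64.1, 59.3 and 37.1 CPM in mESCs against 29.1, 25.3 and 26.3 CPM in MEFs (log2 fold change 0.93, SE 0.15, adjusted p = 2.2e-05), while the promoter of H13 itself held 15.4, 16.2 and 14.3 CPM in MEFs and 13.9, 13.96 and 12.2 CPM in mESCs and did not pass on BGI (log2 fold change -0.26, SE 0.13, adjusted p = 0.0796) but was lower on Illumina (adjusted p = 0.00473) and on BGI without MEF 4 (log2 fold change -0.32). Intron and exon peaks of H13 were called in both directions, from -2.66 at chr2:152675142-152675643 to 1.70 at chr2:152699838-152700339 on the log2 scale. At Inpp5f the host promoter (chr7:128610973-128611474) held 49.2, 45.3 and 50.4 CPM in MEFs and 19.2, 21.3 and 19.3 CPM in mESCs (log2 fold change -1.34, SE 0.10, adjusted p = 7.9e-10). The internal promoter, whose sequence is printed above, held 13.4, 11.7 and 11.1 CPM in mESCs against 4.52, 5.72 and 7.62 CPM in MEFs (log2 fold change 0.96, SE 0.19, adjusted p = 1.6e-04). At both genes, then, the internal DMR promoter was higher in mESCs, and the other 4 peaks of Inpp5f were lower, down to -1.84 ± 0.14 (SE) at chr7:128672337-128672838.

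Among the remaining loci, Plagl1 had 3 of 4 peaks higher, led by an exonic peak (chr10:13127257-13127758) with 7.94, 7.57 and 7.77 CPM in mESCs against 0.554, 0.994 and 1.19 CPM in MEFs (log2 fold change 3.02, SE 0.29, adjusted p = 2.2e-08) and an intron peak (chr10:13107869-13108370) with 20.1, 16.7 and 16.9 CPM in mESCs against 1.85, 2.73 and 2.24 CPM in MEFs (log2 fold change 2.91, SE 0.19, adjusted p = 1.8e-10), while its DMR promoter was lower as given above. Another Zrsr1 peak (chr11:22972643-22973144), which also covers a Commd1 exon, held 18.2, 11.8 and 8.200 CPM in mESCs against 3.46, 4.52 and 6.02 CPM in MEFs (log2 fold change 1.38, SE 0.26, adjusted p = 8.2e-05). At Nnat the other peak belongs to the promoter of the neighbour Blcap and was lower by -0.38 on the log2 scale, a call lost with the down-sampled depths and without MEF 1 or mESC 3. Kcnk9, a maternal potassium channel gene, had no promoter peak, and an intron peak (chr15:72516955-72517456) held 9.33, 11.7 and 11.6 CPM in mESCs against 5.03, 4.97 and 5.13 CPM in MEFs (log2 fold change 1.04, SE 0.18, adjusted p = 3.0e-05).

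Grouped by the parent of the expressed copy, the paternal genes had 22 peaks higher and 47 lower of 85 and the maternal genes 21 and 45 of 83, with medians of -0.53 and -0.48 on the log2 scale. Peaks in the windows of a paternal and a maternal gene, as at Igf2r and Airn, count in both groups. On Illumina the medians were -0.44 for the paternal and -0.59 for the maternal genes. Over all peaks 40.9% were higher and 43.2% lower, with a median of -0.08. The 3 genes of mixed expression, Gnas, Grb10 and Inpp5f, had 14 higher and 16 lower of 33. Of 12 factors that maintain imprints or insulate them, 11 had a promoter peak. Those of Zfp57, Setdb1, Dppa3 and Dnmt1 were higher in mESCs and those of Zfp445, Ctcf, Yy1 and Smchd1 lower, a share near the 72.3% of all promoter peaks that differed. At Dnmt1 the libraries of the cell types overlapped, and the peak did not pass on Illumina (adjusted p = 0.0638). The largest of these differences was at Dppa3, which protects maternal imprints in the early embryo, with a log2 fold change of 1.39 (SE 0.27, adjusted p = 1.2e-04). At Zfp57 it was 0.42 (SE 0.11, adjusted p = 0.00237). Of 20 neighbours in the clusters, 17 had a promoter peak, 6 higher and 9 lower, beside 31.3% and 41% of all promoter peaks.

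The mESC libraries differed among themselves at the germline DMRs. The 16 DMR sites of the list, of which the 5 inside or upstream of genes and the comparison of mESC 5 with the other mESC libraries were chosen after the values were seen, had a median coefficient of variation of 21.6% over the 3 mESC libraries on BGI and 8.95% over the 3 MEF libraries. Over all 26197 promoter peaks with a mean of at least 5 CPM in mESCs the medians were 9.41% and 9.70%. The level in mESC 5 was 0.697 times the mean of mESC 1 and 3 at the median DMR site, beside 0.987 over those promoter peaks. It was under 0.8 times that mean at 10 of the 16 sites, beside 4.54% of the promoter peaks. It was so at 0 of 17 lead promoter peaks of imprinted genes without a promoter DMR. These 17 are those with a mean of at least 5 CPM in mESCs, a filter that was not put on the DMR sites. Sequencing of the same libraries on Illumina gave a median of 0.777, with 11 of 16 sites under 0.8. At Mest and Peg13 mESC 5 was above that mean on both platforms, and at Peg10 and Sgce and at Snrpn the ratio was between 0.8 and 1 on both. The list need not hold every germline DMR of these loci. It left out the Gnas peak at chr2:174327527-174328028, whose narrow mESC spread is given above. It also left out the promoter of the neighbour Nap1l5. There mESC 1, 3 and 5 held 6.43, 6.21 and 7.89 CPM on BGI and 7.50, 6.84 and 6.70 CPM on Illumina.

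The lowest ratio on BGI was at the internal Grb10 promoter (0.552), where mESC 1, 3 and 5 held 15.7, 21.4 and 10.2 CPM, and the next at Mcts2 in H13 (0.602). At the printed Peg3 and Usp29 sequence the ratio was 0.693, and at Zrsr1, Impact and Nnat it was 0.692, 0.672 and 0.641. At the paternally methylated H19 DMR, where the mESC libraries held 3.66, 2.31 and 1.86 CPM, it was 0.625. These ratios are from BGI, and the one at H19 rests on few reads. On Illumina the ratio was 0.827 at the H19 DMR and 0.781 at the internal Grb10 promoter. It was 0.602 at Mcts2, 0.660 at Peg3 and Usp29, 0.620 at Zrsr1, 0.650 at Impact and 0.537 at Nnat. Without mESC 5, the call of mESCs against MEFs was the same at 16 of the 16 sites, while the sizes moved. The log2 fold change went from -0.21 to -0.05 at Peg3 and Usp29, from 0.08 to 0.22 at Kcnq1ot1, from -0.51 to -0.35 at Plagl1, from -0.81 to -0.63 at Impact and from -1.50 to -1.31 at the H19 DMR. It rose from 0.64 to 0.84 at Nnat, from 0.82 to 0.98 at Zrsr1, from 0.93 to 1.14 at Mcts2 and from 1.04 to 1.28 at the internal Grb10 promoter. At the other sites it was -0.16 at Peg10 and Sgce, -1.07 at Mest, -1.12 at Airn, -0.65 at Peg13, 0.70 at Nespas, 1.02 at the internal Inpp5f promoter and 1.22 at Snrpn without mESC 5. DNA methylation was not measured in these samples, and the origin of the spread was not tested.

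**Figure D4:**
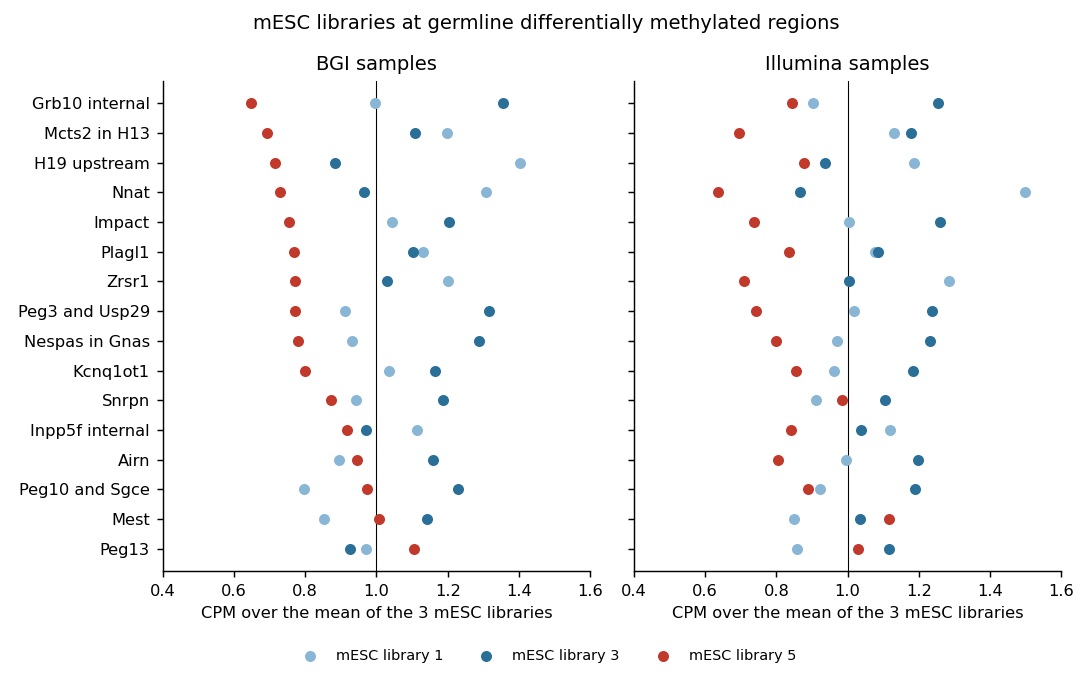
Level of each mESC library at 16 germline DMR sites (y axis) divided by the mean of the 3 mESC libraries (x axis), for BGI samples (left) and Illumina samples (right). Library mESC 5 (red) is the lowest at most sites on both platforms, and lies above 1 at Mest and Peg13.

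Since both instruments read the same libraries, the platforms were compared within each cell type. Of the 172 imprinted-gene peaks of the BGI set with a matching Illumina peak, 139 were called between the cell types on both platforms, all in the same direction, 4 on BGI only, 6 on Illumina only and 23 on neither. In the platform comparison itself, 7 of the 158 imprinted-gene peaks of MEFs differed (beside 4.06% of all peaks), and 7 of the 131 of mESCs (beside 3.23%). In both cell types all 7 were lower on BGI. With the library number as a replicate block, 46 differed in MEFs, 18 higher and 28 lower on BGI (beside 29.2%), and 37 in mESCs, 7 higher and 30 lower (beside 21.3%). The higher calls were the less stable ones, as leaving out 1 MEF library in turn gave 6 to 7 higher and 24 to 29 lower (beside 17.8% to 24.6% of all peaks called). Leaving out mESC 1, 3 or 5 gave 3, 1 or 6 higher and 26, 26 or 28 lower (beside 13.6% to 16.7%), and DESeq2 with the block called 0 higher with 16 lower in MEFs (beside 14.6%) and 10 in mESCs (beside 9.25%). Without the block, edgeR called 0 peaks when MEF 1 or MEF 2 was left out (beside 0% of all peaks) and 15 when MEF 4 was left out (beside 9.91%). It called 0 when mESC 1, 3 or 5 was left out (beside 0.00149%, 2.05% and 0%), with 13 to 16 peaks in MEFs and 18 to 25 in mESCs at an unadjusted p below 0.05 in the fits with 0 calls. The share of all peaks at that unadjusted p is not given here. DESeq2 on all libraries called 17 peaks in MEFs and 7 in mESCs, beside 12.8% and 5.75% of all peaks to which it gave an adjusted p, which included 134 of the 158 and 83 of the 131.

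The peaks that differed without the block were GC-rich promoters. Their GC content ran from 67.5% to 77.7% in MEFs, at Grb10, Gnas, Copg2, Igf2 and Ascl2, and from 66.3% to 76.9% in mESCs, at Grb10, Dio3, Gnas, Igf2, Ascl2 and Cdkn1c. The Igf2 promoter peak at chr7:142659137-142659701, for instance, held 15.6, 15.8 and 16.9 CPM on BGI and 23.2, 24.6 and 23.7 CPM on Illumina in MEFs, at 77.7% GC (log2 fold change -0.59, SE 0.10, adjusted p = 0.0125). At Dio3 in mESCs the values were 5.61, 5.05 and 5.58 CPM on BGI and 8.88, 9.46 and 9.36 CPM on Illumina (log2 fold change -0.82, SE 0.15, adjusted p = 0.0107). Each library had the lower value on BGI. With the block this no longer held for all calls. The 18 peaks higher on BGI in MEFs had 43.3% to 61.3% GC and the 7 in mESCs 43.6% to 59.5%, while those lower on BGI had medians of 67.6% and 68.6%. This contrast rests on the higher calls, which in MEFs fell from 18 to 6 or 7 with any 1 library left out and in mESCs from 7 to 1 without mESC 3, and which DESeq2 with the block did not make. With a GC correction added to the block the counts were 22 in MEFs, 8 higher and 14 lower on BGI (beside 12.7% of all peaks), and 14 in mESCs, 8 higher and 6 lower (beside 8.66%), and of the 7 and 7 peaks above 3 and 1 were still called.

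**Figure D5:**
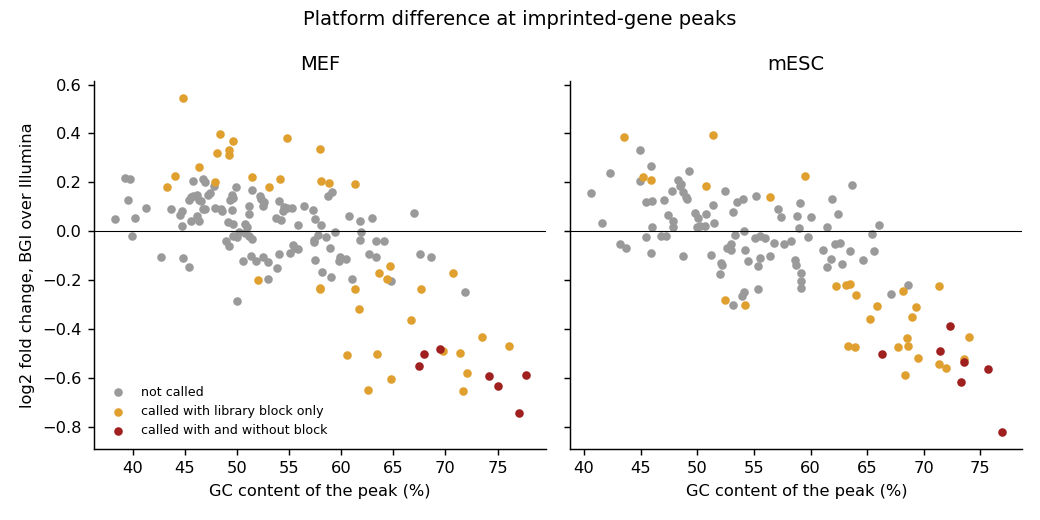
Log2 fold change of BGI over Illumina (y axis) against the GC content of the peak in percent (x axis) for the 158 imprinted-gene peaks of MEFs (left) and the 131 of mESCs (right), 1 point per peak. Red points were called with and without the library as a block and all lie below 0 at high GC content; yellow points were called with the block only.

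Whether the difference between the cell types itself depended on the platform was tested as an interaction over all 4 groups. By edgeR, 0 of the 192 imprinted-gene peaks passed, beside 0% of all peaks, and 4 had an unadjusted p below 0.05. With the library block 0 passed, beside 0.386% of all peaks, and 29 had such a p, and 0 passed with RLE size factors or in the Illumina peak set. The share of all peaks at an unadjusted p below 0.05 is not given here, so these counts cannot be set against the genome. The median interaction over the imprinted-gene peaks was 0.14 with and without the block, beside 0.11 over all peaks.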

How the data were processed

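Omni-ATAC-seq reads were trimmed by the authors with Cutadapt, aligned to GRCm38 (mm10) with Bowtie2, freed of duplicates (Picard), of low mapping quality and of mitochondrial reads, and down-sampled to 60000000 reads in MEFs and 45000000 in mESCs. MACS2 peaks were called per sample by the authors and deposited with their -log10 p-values, which were used here only to see in which samples a summit fell into a peak. Summits were widened to a fixed width and kept at a depth-scaled score of at least 3 in at least 2 samples, and the authors deposited raw read counts per peak (subread), with no normalization, for each peak set. Peaks were annotated here with GENCODE M21, and sequences were read from the RefSeq copy of GRCm38. CPM were computed over reads in peaks.

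The counts were tested with edgeR 4.0.16 in R 4.3.3 (quasi-likelihood F test, TMM, two-sided, Benjamini-Hochberg adjustment over all peaks of a set, 3 against 3 samples). DESeq2 1.42.0, here with a local dispersion fit, was an alternative, as the authors used it. Standard errors were derived from the fold change and the F statistic. Python 3.11.15 and bedtools 2.31.1 were used otherwise. The filter on low counts removed no peak. A BGI and an Illumina peak were matched at an overlap of at least 50% of the width.

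Peaks were named by a rule: the lead promoter peak of every gene, and in each cluster up to 3 higher and up to 3 lower peaks with the largest log2 fold change among those called in the same direction on both platforms. Other named peaks, the sites and ratio used for the spread among mESC libraries, the AP-1 and octamer motifs and the replicate block with a library left out were chosen after the data had been seen, and the members and lists with earlier results of these data known. Library numbers pair the platforms, since both read the same library: deviations from the group means correlated at 0.618 to 0.837 (MEFs) and 0.515 to 0.724 (mESCs) for the same library and at -0.676 to 0.293 and -0.510 to -0.115 for different ones. No 2 count columns were identical.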

Additional observations from a re-analysis of the deposited data

How the results depend on the processing

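The counts of imprinted-gene peaks called between mESCs and MEFs stayed within 1.5 times the reported ones with RLE size factors, DESeq2, other filters, the depths after down-sampling, a 2-fold threshold, the gene bodies alone, the other platform's samples on the same peaks, and each library left out. Limited to peaks within 1 kb of a start of an imprinted gene, 52 of 71 were called on BGI (20 higher and 32 lower, beside 72.3% of all promoter peaks) and 60 of 75 on Illumina (22 higher and 38 lower, beside 73.99%), as fewer peaks were counted. Of 1055 alternative values of 88 named peaks, 1036 kept their side of the threshold, 11 lost the call and 8 gained it, at 6 peaks. No called value changed sign, while the uncalled Kcnq1ot1 and Cdkn1c promoters changed sign near 0 under some alternatives. The peaks that changed call were those of Copg2, Ube3a and Nnat (the Blcap promoter), which lost it, and those of Igf2r, H13 and Peg3, which gained it, Peg3 only without mESC 3 (log2 fold change -0.44).

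Between platforms, the 7 calls in MEFs became 46 with the replicate block, 22 with the replicate block and a GC correction, 17 with DESeq2 and 16 with DESeq2 and the block. The 7 in mESCs became 37 with the replicate block and 14 with the GC correction added. With each MEF library left out in turn the MEF count was 0 to 15, or 30 to 36 with the replicate block. The mESC count was 0 without any 1 mESC library, and with the replicate block it was 29 without mESC 1, 27 without mESC 3 and 34 without mESC 5. The cause of these shifts was not tested beyond the GC correction. No paired analysis was possible between the cell types, because only library number 1 occurs in both and it pairs nothing. Depth limits the peaks near 0.1 to 1 CPM, whose fold changes rest on few reads in 1 cell type.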
